A study of Mus musculus with 3 samples.

Results

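The 33 probes described here measure mouse miRNAs of the miR-297, miR-466, miR-467 and miR-669 families, the names given to the large miRNA cluster in an intron of Sfmbt2. They were chosen by name alone, with any letter or arm and with probes shared by several miRNAs included, from all 566 miRNA probes measured in serum of tumour-bearing mice. Serum was pooled by tumour type, giving Tn+ pool 1, Tn+ pool 2 and 1 Tn- pool. Per the labels, the host mice were female BALB/c, 6 to 8 weeks old, and carried 100000 4T1 cells in the right fat pad numbered 4 until day 28. 4T1 is a BALB/c mammary carcinoma line used as a model of triple-negative breast cancer. Tn+ cells were 4T1 cells in which CRISPR/Cas9 was directed at exon 2 of Cosmc, a chaperone without which O-glycans stop at the short Tn antigen. The labels do not say whether the edited line is 1 clone or whether the Tn- cells carried a control construct. A study group held at least 8 mice, but the mice in each pool are not stated, nor whether the Tn+ pools came from different mice. The panel measures miRNAs, so the Cosmc edit itself was not checked here.

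Sfmbt2 encodes a Polycomb group protein and is imprinted in mouse extraembryonic tissue, where the paternal copy is used. Its miRNA cluster is specific to rodents, arose by tandem duplication and is known from embryonic stem cells and placenta. Each miRNA guides a silencing complex to messenger RNAs, mainly through its seed, bases 2 to 8 from its 5′ end. Copies in such a cluster differ by few bases, so probes for related members can share signal, and the 33 values are not 33 independent measurements.

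The naming rule and the cluster are not the same set. In the RefSeq gene table (GRCm38.p6), 82 miRNA genes carry these names, of which 72 lie within the bounds of Sfmbt2 on chromosome 2 and 10 lie elsewhere. The table gives gene bounds only, so their place in an intron was not checked. The 72 comprise 29 miR-669, 24 miR-466, 14 miR-467 and 5 miR-297 genes. In their order along Sfmbt2, a miR-467 gene followed by a miR-466 gene and then a miR-669 gene occurred 12 times. Of the 33 probes, 25 matched genes inside Sfmbt2 only, 5 matched a gene elsewhere only, and 3 matched both. The 5 were miR-466i, miR-466j, miR-466k, miR-467f and miR-467g, for which the label of an Sfmbt2 intron cluster does not hold. The 3 were miR-466f-5p, the probe shared by miR-297a, miR-466f and miR-669b, and the probe shared by miR-467h, miR-669d and miR-669l.

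Mature sequences from RefSeq (GRCm38.p6) matched the exact name of 5 of the 33 probes, all with a gene outside Sfmbt2. They are shown because probes for 3 of them gave signal in serum (miR-467h through a shared probe) and the other two did not, and the seed is in capitals.
miR-466j: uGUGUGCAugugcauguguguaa
miR-466k: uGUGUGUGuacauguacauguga
miR-467h: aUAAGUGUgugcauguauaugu
miR-467f: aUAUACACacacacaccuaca
miR-467g: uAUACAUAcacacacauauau
They lie at chr10:60960802-60960824 (plus strand), chr3:85467396-85467418 (plus), chr9:115381898-115381919 (plus), chr11:69635419-69635439 (minus) and chr5:34732872-34732892 (minus). No pair of them shared a seed. miR-466j, miR-466k and miR-467h hold the repeat UGUGUG, while miR-467f and miR-467g hold CACACA, its reverse complement. The longest run of identical bases was 11 between miR-466j and miR-467h, 11 between miR-467f and miR-467g and 8 between miR-466j and miR-466k, against 2 to 5 between a UGUGUG member and a CACACA member.

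These families gave little signal. The deposited values are normalized units whose lowest value in a pool, here called the floor, is shared by many probes (338, 416 and 481 of 566 in Tn+ pool 1, Tn+ pool 2 and Tn- serum). Above it they move in steps of 0.896, 1.09 and 1.08 units, so that a value of a few units is a few steps. The pools also differ in total, with 59444, 31977 and 4204 units, and the red cell markers (miR-451, miR-144, miR-486, miR-16 and miR-25) held 82.5%, 70.7% and 53.2% of them, with 5, 5 and 4 of the 5 above the floor. The part that these differences have in the values given next was not tested.

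The 4 families were near the limit of what these pools could measure. Of the 33 probes, 16 lay at the floor in Tn+ pool 1, 19 did so in Tn+ pool 2, and 29 in Tn- serum. In percent, 51.5, 42.4 and 12.1 of them were above it, beside 40.3, 26.5 and 15.02 of all 566 probes. In all, 13 members were at the floor in every pool, 20 were above it somewhere and 4 (miR-466j, miR-467b, miR-467d and miR-669h-5p) were above it in all pools. Of all 566 probes, 60 were above it in all pools. No member was above it only in Tn- serum, beside 7 of the 566 probes. Of the 17 members above the floor in Tn+ pool 1 and the 14 in Tn+ pool 2, 11 were the same, beside 126 of 228 and 150 for the whole panel.

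**Figure D1:**
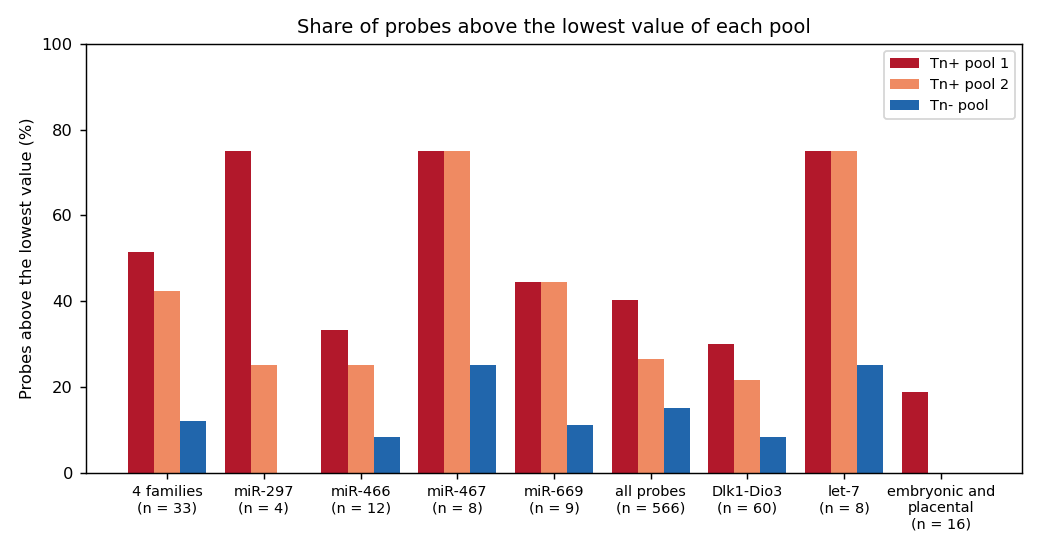
Percent of probes above the lowest value of each pool (vertical axis), for the 4 number families together, each family, all 566 probes, the imprinted Dlk1-Dio3 cluster, let-7 and an embryonic and placental list, with 1 bar a pool. In the 4 families together 51.5% and 42.4% of probes were above it in the Tn+ pools and 12.1% in Tn- serum.

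The height of these values was modest as well. The highest member reached 18.7 units in Tn+ pool 1 (miR-466j), 36.5 units in Tn+ pool 2 (miR-466g) and 6.96 in Tn- serum (miR-467b), which is 20, 33 and 6 steps above the floor. By rank among 566 probes these were the 51st, 34th and 34th highest of their pools. At least 10 units were reached by 2 members in Tn+ pool 1, by 4 in Tn+ pool 2 and by none in Tn- serum. The whole panel had 67, 69 and 28 of 566 probes at that level. miR-466g was the only member with a mean of 10 or more over the pools, beside 58 of the 566 probes. Summed above the floor, the 33 probes had 78.6, 97.8 and 9.52 units, which is 0.133%, 0.312% and 0.265% of all signal above the floor in Tn+ pool 1, Tn+ pool 2 and Tn- serum. The amount is thus 8.26-fold and 10.3-fold higher in the Tn+ pools than in Tn- serum, beside 16.4-fold and 8.73-fold for all probes. The Tn- amount of 9.52 units came from 4 probes. With the floor included, the folds were 2.47 and 2.96, beside 14.1 and 7.61 for all probes. The order of the pools' shares is not firm. Without miR-466g they were 0.119%, 0.199% and 0.265%, highest in Tn- serum, and as a share of all signal with the floor included the 33 probes had 0.188%, 0.418% and 1.07%.

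**Figure D2:**
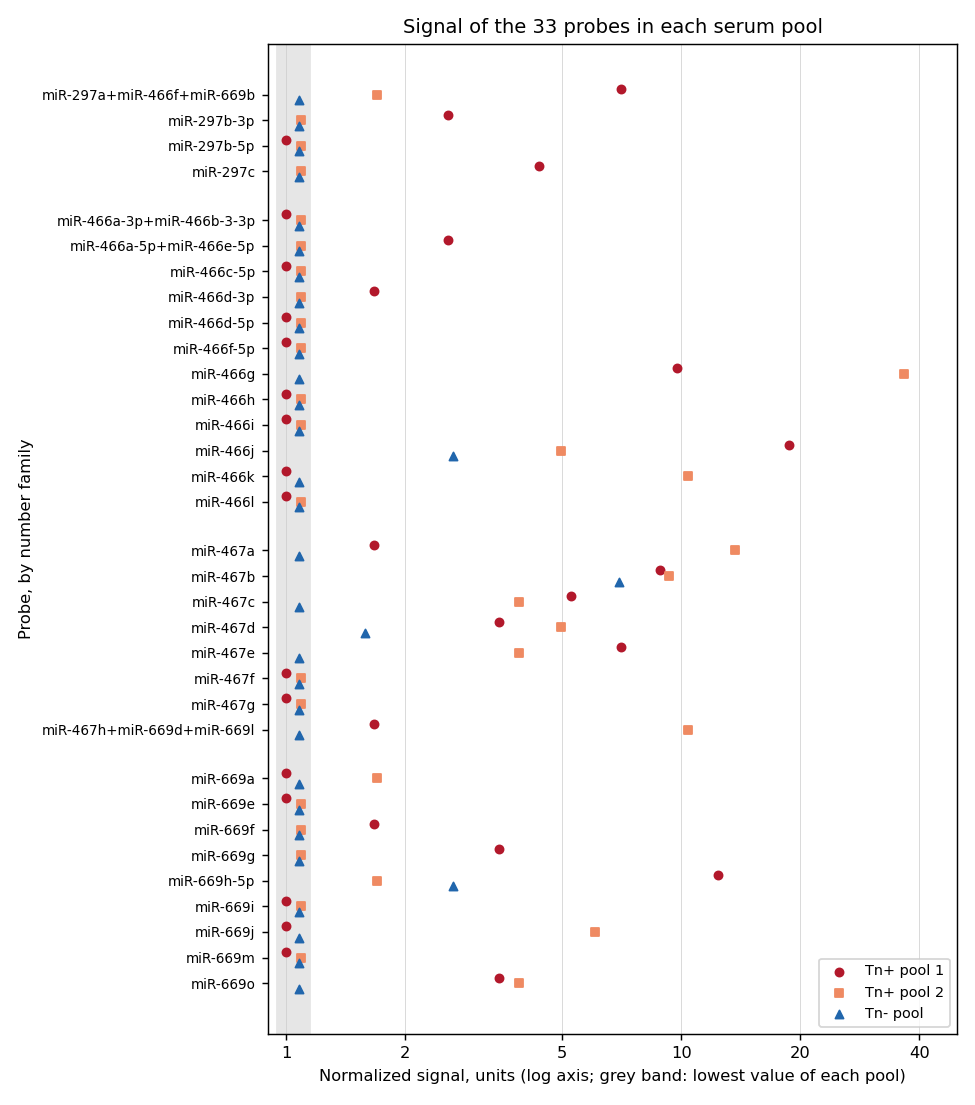
Normalized signal in units (horizontal log axis) of each of the 33 probes, grouped by number family, with 1 point for each pool and a grey band over the lowest values of the pools. Most Tn- points lie in the band, where 29 of 33 probes were at the lowest value, and miR-466g in Tn+ pool 2 has the highest value at 36.5 units.

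The miR-466 family, the largest on the panel with 12 probes, rested on few members. 7 of the 12 were at the floor in every pool, and 4, 3 and 1 were above it in Tn+ pool 1, Tn+ pool 2 and Tn- serum. miR-466g, whose single gene lies inside Sfmbt2, had 9.73 units in Tn+ pool 1 but 36.5 in Tn+ pool 2, with the floor value of 1.08 in Tn- serum. Both Tn+ values lie above the Tn- value, but they also lie more than 2-fold from each other, with a mean of 23.1 ± 18.9 units (SD, n = 2). Set against 3 times the step of Tn- serum (3.23 units) in place of its floor, they are 3.01-fold and 11.3-fold higher. This is not a lower limit because the counts removed as background are not known.

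miR-466j, encoded outside Sfmbt2, had 18.7 and 4.97 units in Tn+ pools 1 and 2, against 2.65 in Tn- serum, the last being 2 steps above the floor. miR-466k, also encoded elsewhere, was at the floor in Tn+ pool 1 and Tn- serum and had 10.4 units in Tn+ pool 2. The order of the Tn+ pools is therefore opposite for miR-466j and miR-466g, and for miR-466k only Tn+ pool 2 lies above Tn- serum. The other members above the floor were the probe shared by miR-466a-5p and miR-466e-5p, with 2.57 units, and miR-466d-3p, with 1.67, both in Tn+ pool 1 alone. The other arm probed from the same hairpin, miR-466d-5p, was at the floor in all pools, as were miR-466c-5p, miR-466f-5p, miR-466h, miR-466i, miR-466l and the probe shared by miR-466a-3p and miR-466b-3-3p.

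The miR-467 family had the largest share of probes above the floor in both Tn+ pools. 6 of its 8 probes were above the floor in both Tn+ pools and 2 in Tn- serum, and the other two, miR-467f and miR-467g, were at the floor everywhere. Both of these are encoded outside Sfmbt2 and carry the CACACA repeat printed earlier. miR-467b had 8.84 and 9.32 units in Tn+ pools 1 and 2, against 6.96 in Tn- serum, where it was the highest of the 33. Its Tn+ pools differed by less than 1 step, and the mean of 9.08 ± 0.339 units (SD, n = 2) lies above the single Tn- value.

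miR-467c had 5.26 and 3.88 units and miR-467e had 7.05 and 3.88 units in the Tn+ pools, both with Tn- serum at its floor. miR-467d had 3.46 and 4.97 units against 1.58, which is 1 step above the floor. In these 3 members both Tn+ values exceeded the Tn- value and lay within 2-fold of each other. miR-467a, for which RefSeq lists 10 gene copies inside Sfmbt2, had 1.67 units in Tn+ pool 1 but 13.7 in Tn+ pool 2, with the floor in Tn- serum. The probe shared by miR-467h, miR-669d and miR-669l had a like pattern, with 1.67 and 10.4 units and the floor. In both, the signal came mainly from Tn+ pool 2.

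The miR-669 family had the most genes in the cluster and little signal. Of its 9 probes 3 were at the floor in all pools, and 4, 4 and 1 were above it in Tn+ pool 1, Tn+ pool 2 and Tn- serum. miR-669h-5p, from the last gene of the cluster by coordinate, had 12.4 units in Tn+ pool 1 but 1.70 in Tn+ pool 2, against 2.65 in Tn- serum, and the Tn- value lies between the Tn+ values. miR-669o had 3.46 and 3.88 units against the floor, a mean of 3.67 ± 0.297 units (SD, n = 2). It was the only miR-669 probe with both Tn+ pools above the floor and Tn- serum at it. miR-669g had 3.46 units in Tn+ pool 1 alone and miR-669j 6.06 units in Tn+ pool 2 alone. miR-669a, with 12 gene copies in RefSeq, had 1.70 units in Tn+ pool 2, 1 step above the floor, and was at the floor in the other two pools. The highest value of the 33 belonged to miR-466g, which has 1 gene. miR-669f had 1.67 units in Tn+ pool 1 alone, and miR-669e, miR-669i and miR-669m were at the floor throughout.

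The miR-297 family is the smallest, and its signal came from Tn+ pool 1. The probe shared by miR-297a, miR-466f and miR-669b had 7.05 units there, 1.70 in Tn+ pool 2 and the floor in Tn- serum. miR-297c had 4.36 units and miR-297b-3p 2.57 units in Tn+ pool 1, with the floor in both other pools. miR-297b-5p, from the same hairpin as miR-297b-3p, was at the floor in all pools. No miR-297 probe was thus above the floor in Tn- serum.

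**Figure D3:**
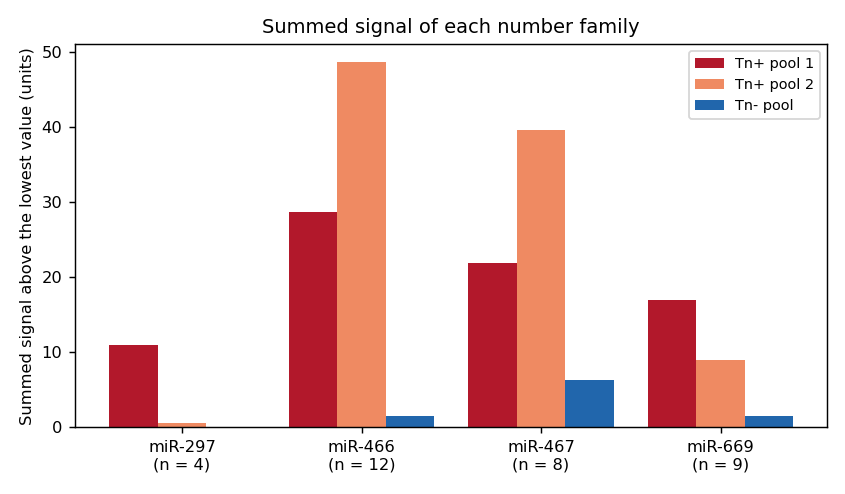
Signal above the lowest value of each pool, in units, summed over the probes of each number family (vertical axis, from 0), with 1 bar a pool and shared probes counted in the family named first. The miR-466 and miR-467 sums are highest in Tn+ pool 2, and the miR-297 and miR-669 sums are highest in Tn+ pool 1.

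Summed above the floor, the miR-466 family had 28.7, 48.6 and 1.57 units in Tn+ pool 1, Tn+ pool 2 and Tn- serum, and the miR-467 family had 22.0, 39.6 and 6.38. The miR-669 family had 17.0, 8.98 and 1.57 units, and the miR-297 family had 10.98, 0.61 and 0. Each sum was higher in both Tn+ pools than in Tn- serum, but the order of the Tn+ pools differed between families. In Tn+ pool 2 the miR-466 sum is mostly the single probe miR-466g, which alone had 36.5 units there.

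Along Sfmbt2 the signal did not lie in 1 stretch. By coordinate, miR-467c is gene 13 of the 72, miR-467b gene 25, miR-467e gene 53, miR-466g gene 66 and miR-669h gene 72, and all 5 were above the floor in both Tn+ pools. Between them lay genes at the floor, such as miR-466h (gene 67) and miR-669i (gene 71). Probes matching genes inside Sfmbt2 only were above the floor in 16 of 25 cases, those matching genes elsewhere only in 2 of 5 and those matching both in 2 of 3. These small counts were not tested.

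**Figure D4:**
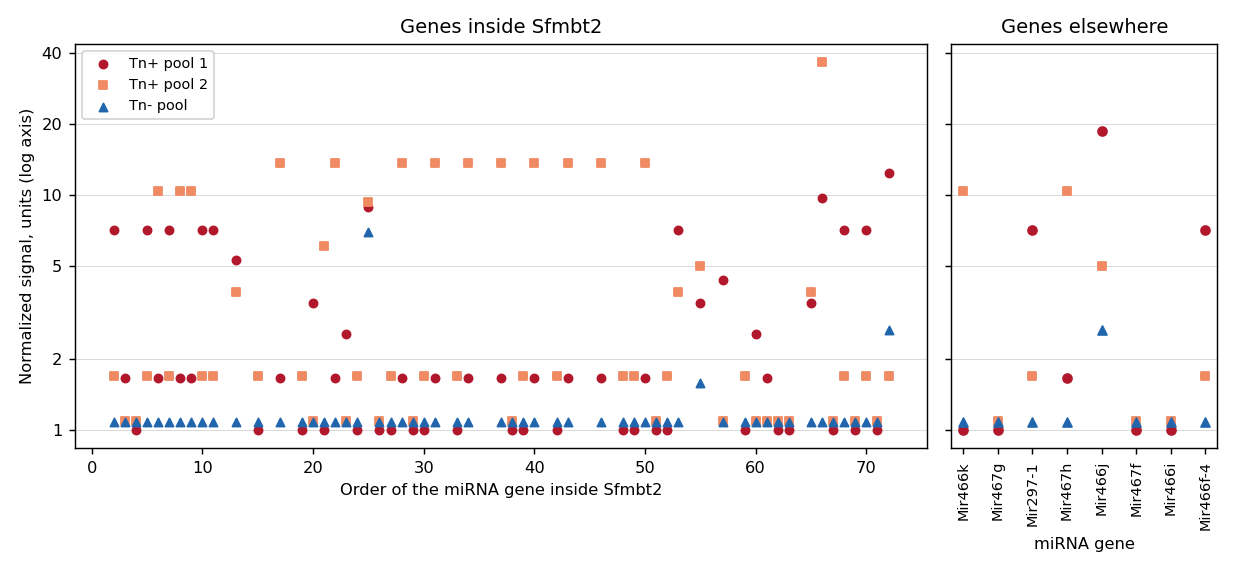
Normalized signal in units (log axis) of the probe for each miRNA gene, the highest probe where a gene has several, with genes in their order inside Sfmbt2 on the left and genes elsewhere on the right, and 1 point a pool. Copies of a gene share 1 probe, so the row of Tn+ pool 2 points at 13.7 units is the single miR-467a probe drawn at its 10 genes.

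The study's comparison asks which serum miRNAs differ with the Tn status of the tumour. Members were counted first by size alone, as at least 2-fold above Tn- serum in each Tn+ pool on signal + 1, a scale that understates the change of low miRNAs. By that count 4 of the 33 members were higher: miR-466g, miR-467c, miR-467e and miR-669o. That is 12.1% of the members, beside 12% of all 566 probes. No member was at least 2-fold lower in both, beside 0.707% of all probes. The Tn- value of all 4 was the floor, and with low values raised to 3 times the step miR-466g alone kept its place. Either Tn+ pool alone gave 9 members at least 2-fold higher, which is 27.3% of the members, beside 21.2% of all probes for pool 1 and 17% for pool 2. These 4 were common to both, beside 68 common to the 120 and 96 probes of the panel. Pool 1 added the shared miR-297a probe, miR-297c, miR-466j, miR-669g and miR-669h-5p, and pool 2 added miR-466k, miR-467a, miR-467d, the shared miR-467h probe and miR-669j. The Tn+ pools were at least 2-fold from each other for 10 of the 33 members, or 30.3%, beside 19.8% of all probes.

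In limma, fitted to log2(signal + 1) of the whole panel with Benjamini-Hochberg adjustment, none of the 33 passed an adjusted p of 0.05, and neither did any other probe (0%). An unadjusted p under 0.05 was reached by 2 members, miR-669o and miR-467c, both higher in Tn+ serum, which is 6.06% of members beside 9.89% of all probes. miR-669o had a log2 ratio of 1.17 (SE 0.17, unadjusted p = 0.0126, adjusted p = 0.264) and miR-467c one of 1.41 (SE 0.25, unadjusted p = 0.0203, adjusted p = 0.305). miR-466g had the largest ratio of the 33, 3.27, with an SE of 1.02 and an adjusted p of 0.514. The ratio of miR-467b, the member best measured in Tn- serum, was 0.34 (SE 0.16, adjusted p = 0.895). Each SE combines the difference between the 2 Tn+ pools, with 1 residual degree of freedom a probe, with a spread that limma estimates from the whole panel, and the single Tn- pool is assumed to vary likewise. The p-values measure no spread other than that between these pools. Among the 259 probes above the floor in some pool, limma called 1 of 20 members, miR-466g (adjusted p = 0.0431), which is 5% of them beside 11.2% of the 259. miR-466g passed this filter only through the Tn+ pools, where it is high, so the call is no support for the difference. In the same fit neither miR-669o nor miR-467c kept an unadjusted p under 0.05. Over all its alternatives the adjusted p of miR-466g ranged from 0.00342 to 0.882.

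The other members differ in how well their Tn+ pools match. miR-467e had a log2 ratio of 1.59 (SE 0.43) and miR-467d one of 1.00 (SE 0.28), with limma adjusted p-values of 0.446 and 0.451. Where 1 Tn+ pool carried most of the signal, the SE was larger, from 0.98 to 1.42 for the 5 members given next. miR-467a had a ratio of 1.59 with an SE of 1.39, and miR-466k one of 1.20 with an SE of 1.42. The probe shared by miR-467h, miR-669d and miR-669l had 1.41 with an SE of 1.18, and miR-669h-5p 0.72 with an SE of 1.30. miR-466j had 1.57 with an SE of 0.98, the smallest SE relative to the ratio among these 5.

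Over the 20 members above the floor somewhere, the median log2 ratio was 0.93, beside 0.71 for the 259 such probes on the panel. Both are descriptions only, since 16 of the 20 (80%) and 174 of the 259 (67.2%) were at the floor in Tn- serum and were kept only through a Tn+ pool. Taken per pool, the members' median was 0.78 in Tn+ pool 1 and 0.54 in Tn+ pool 2, beside 0.78 and 0.38. The largest ratio of a member was 2.43 in pool 1 (miR-466j) and 4.17 in pool 2 (miR-466g), beside 7.84 and 6.91 for the panel.

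Direction depended on how the pools were brought to 1 scale. The deposited totals put a shift between Tn+ and Tn- serum that median-of-ratios scaling, scaling to the 100 highest probes and equal totals removed as 3.18-fold, 6.06-fold and 10.4-fold. The lowest value of scaled Tn- serum then became the common lowest value of all pools, so members at the floor in Tn- serum could not turn lower. This held for 11 of the 15 members named in the comparison, among them miR-466g, with log2 ratios of 2.07, 1.34 and 0.98, and miR-467a, with 0.77, 0.51 and 0.32. With equal totals the ratio of miR-466g came from Tn+ pool 2 alone, and that of miR-467a did so under all 3 scalings. Of the 4 members measured above the floor in Tn- serum, miR-467b turned lower, with log2 ratios of -1.16, -2.01 and -2.40, as did miR-467d (-0.21, -0.45 and -0.47) and miR-669h-5p (-0.23, -0.77 and -1.15). miR-466j turned lower with the 100 highest probes and with equal totals (-0.51 and -1.02). These ratios are means over the Tn+ pools, which did not always go the same way. With the 100 highest probes, miR-466j in Tn+ pool 1 (9.30 units) lay above Tn- serum (8.81), with pool 2 at the common lowest value. With median-of-ratios scaling, miR-669h-5p in Tn+ pool 1 (8.97) also lay above Tn- serum (5.75), with pool 2 at the common lowest value. Summed over the 33 probes with the floor included, unlike the sums above the floor given earlier, the log2 ratio was 1.44 as deposited. It was 0.25, -0.11 and -0.24 after the scalings. Of the families, summed likewise, the miR-467 sum turned lower under all 3 (1.34 as deposited, then -0.09, -0.57 and -0.71), while the miR-466 sum was 1.79, then 0.63, 0.23 and 0.04. Only miR-466j of that family could lower its sum after scaling.

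**Figure D5:**
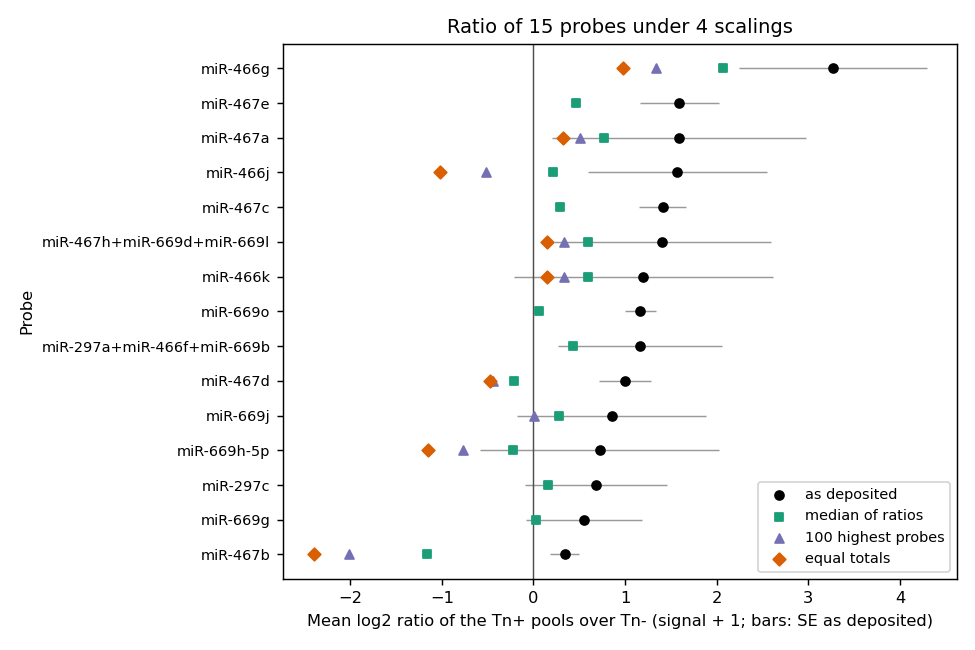
Mean of the log2 ratios of the 2 Tn+ pools to Tn- serum on signal + 1 (horizontal axis) for 15 probes, as deposited with its SE as a bar and under 3 scalings. No point is drawn where a scaling left a probe at the common lowest value in every pool; probes at the floor in Tn- serum, such as miR-466g, cannot fall left of 0 after scaling, and miR-467b is at 0.34 as deposited and left of 0 after each scaling.

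The repeat printed for miR-466j and miR-466k is also found in miRNAs with other numbers. Of 197 panel probes whose exact name has a mature sequence, 4 hold UGUGUGU, searched as written, and all 4 were above the floor in some pool, beside 81 of the 197. UGUGUGU occurs in 11 of 1679 RefSeq mature sequences, or 0.655%. Besides miR-466j and miR-466k these probes were miR-574-5p and miR-1187, shown because the repeat runs through most of their length.
miR-574-5p: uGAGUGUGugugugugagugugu
miR-1187: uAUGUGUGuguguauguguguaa
They lie at chr5:64970328-64970350 (plus strand) and chr5:82798964-82798986 (minus). miR-574-5p had 7.05 and 11.5 units in the Tn+ pools and the floor in Tn- serum, and miR-1187 had 4.36 and 6.06 units against 3.73. Their longest run shared with miR-466k was 9 and 10 bases. The shorter repeat UGUGUG, chosen after values were seen, was in 6 of the 197, of which 5 were above the floor in some pool. CACACA, chosen likewise, was in 5, of which 2 were. Whether probes that share the repeat share signal was not tested.

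Set beside other lists, the 4 families lay between an embryonic list and let-7 in their share of probes above the floor. Of 16 probes of the embryonic stem cell and placental miRNAs miR-290 to miR-295, miR-302 and miR-367, 3 were above the floor, each with 1.67 units in Tn+ pool 1, and none in the other two pools. Of 60 probes of the imprinted Dlk1-Dio3 cluster 18, 13 and 5 were above it, with no value over 16.9 units. Of 8 let-7 probes, also closely related in sequence, 6, 6 and 2 were above it, with up to 489 units. These differences between lists were not tested.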

How the data were processed

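Small RNA from 200 µL of pooled serum, eluted in 20 µL, was hybridized (about 30 ng, 16.5 h) to the Mouse v1.5 miRNA panel of the NanoString nCounter, which counts barcodes without amplification, per the labels' protocols. The deposited signal was normalized by the authors with software that the series' design text names as nCounter Advanced Analysis, and the submitters' processing notes list R 4.4. How background was subtracted and which probes set the scale is not given in the sources used here, so counts and depth are unknown and no counting intervals are given. Both deposited tables held the same signal in 1698 of 1698 values.

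Log2(signal + 1) was fitted with limma 3.58.1 (lmFit, eBayes) in R 4.3.3 over 566 probes with Benjamini-Hochberg adjustment. The script was tested on simulated, well-measured values without a floor, so that test does not cover values near the floor. Python 3.11.15, numpy 2.4.6, pandas 2.3.3 and matplotlib 3.10.9 did the rest. Scaled values were raised to 1 common lowest value. A shared probe counts in the family named first. Genes and sequences were matched by name to RefSeq (GRCm38.p6). Since probes carry no coordinates, only chromosome, order and membership of Sfmbt2 were taken from its gene table. The comparison names each member above the floor in all pools, the 15 highest by mean and those at least 2-fold higher or lower in both Tn+ pools. Alternatives were 2 pseudocounts, 3 scalings, values raised to 3 times the grid step, 2 filters, shared or outside members left out and each Tn+ pool left out. limma has 1 residual degree of freedom a probe, and its tests are two-sided. The members and lists were chosen with earlier results of these data known.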

Additional observations from a re-analysis of the deposited data

How the results depend on the processing

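Above 3 grid steps there were 11 of the 33 members in each Tn+ pool and 1 in Tn- serum. The whole panel had 145, 115 and 55 of 566 probes above them in Tn+ pool 1, Tn+ pool 2 and Tn- serum. Here 3 grid steps means 3 times the step (2.69, 3.26 and 3.23 units in Tn+ pool 1, Tn+ pool 2 and Tn- serum), not 3 steps above the floor. Of the 4 members called higher by size, 1 remained (miR-466g) with values raised to 3 grid steps, with a pseudocount of 5 or with median-of-ratios scaling, and 0 with top-100 scaling or equal totals. Either Tn+ pool left out gave 9, beside 96 of 566 probes without Tn+ pool 1 and 120 without Tn+ pool 2. Members at least 2-fold lower numbered 1 (miR-467b) with median-of-ratios or top-100 scaling and 2 (with miR-669h-5p) with equal totals. For the scalings, the pseudocount of 5 and the raised values, the count by size over all 566 probes was not taken. Those member counts therefore stand without a panel share. limma called 1 member higher, miR-466g, with values at 3 steps (adjusted p = 0.00342, beside 42 of 566 probes), among probes above the floor (29 of 259) and among probes with a mean of 10 or more (adjusted p = 0.0374, beside 32 of 58). It passed both filters only through Tn+ signal. With values at 3 steps its log2 ratio was 2.25, beside 3.27 as deposited, and its Tn+ values stayed at 9.73 and 36.5 units. Probes raised to 3 steps hold 1 value a pool and enter the spread that limma estimates from the whole panel. That call is therefore no support for the difference either. limma called 1 lower with top-100 scaling (miR-467d, beside 30 of 566 probes) and 2 with equal totals (with miR-669h-5p, beside 35), where both Tn+ pools lay at the common lowest value and gave no spread.

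The median log2 ratio of 0.93 has a sign that, as deposited, follows from keeping 16 of 20 members through Tn+ signal. It became 1.29 without a pseudocount and 0.49 with 5. The other medians are over fewer members, those still above the lowest value. They were 0.47 at 3 steps (15 members), 0.27 with median-of-ratios scaling (15), 0.011 with top-100 scaling (9) and -0.16 with equal totals (8). The median was 1.23 without Tn+ pool 1 (14 members) and 1.10 without pool 2 (17). The summed log2 ratio of 1.44, with the floor included, became 0.54 at 3 steps and 0.25, -0.11 and -0.24 after the same 3 scalings. It was 1.18 without miR-466g, an alternative chosen after seeing the data. Of the 15 named members, 11 could not change sign under the scalings, being at the Tn- floor. The other 4 did so in the mean over the Tn+ pools, as follows. With median-of-ratios scaling it was miR-467b (-1.16), miR-467d (-0.21) and miR-669h-5p (-0.23), with top-100 scaling the same at -2.01, -0.45 and -0.77 and miR-466j (-0.51), and with equal totals -2.40, -0.47, -1.15 and -1.02. miR-669h-5p ranged from -0.43 to 1.88 with a Tn+ pool left out, the lower value without pool 1. The direction lower for limma and the filtered fits of named members were also added after seeing the data. The raised lowest values and smaller probe sets are part of these alternatives, and other causes were not tested. No paired analysis was run because the labels name no pair of Tn+ and Tn- pools.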
